A study of Homo sapiens with 6 samples.

Results

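HOX genes encode homeodomain transcription factors that give cells their position along the body axis, and in human cells they lie in 4 clusters named HOXA, HOXB, HOXC and HOXD. All rows of the deposited files with a HOXA, HOXB, HOXC or HOXD symbol followed by a paralog number were taken by symbol alone, with 1 HOXB gene left out, which gave 38 genes of 26255 listed. They comprise 11 HOXA, 9 HOXB, 9 HOXC and 9 HOXD genes. Expression was measured by RNA-seq in 22RV1, a human castration-resistant prostate cancer (CRPC) cell line that carries the androgen receptor, in 3 samples treated with the vehicle DMSO and 3 samples treated with 10 nM bruceantin (BCT), a plant-derived quassinoid. Both groups were kept in serum-containing full medium and harvested after 24 h, so they differ in BCT alone as far as the labels say. The comparison asks which HOX genes were higher or lower in BCT-treated cells. Nothing in the labels says that the samples are separate cultures, so the p-values measure only the spread between these 6 samples, which may be technical.

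Within a cluster the genes are transcribed in the same direction, and their order along the chromosome follows the order in which they act from head to tail. Genes with low paralog numbers are called anterior, and those with high numbers (9 to 13) posterior; the posterior genes pattern the hindgut, limbs and urogenital tract, from which the prostate forms. HOX proteins bind DNA with cofactors of the TALE class (PBX, MEIS and PKNOX proteins), and the clusters are kept silent by Polycomb complexes and active by Trithorax complexes. On hg19, as in the files, the HOXA genes reported singly lie at chr7:27139973-27239725 on the minus strand, the HOXB genes used here at chr17:46606807-46703835 on the minus strand, the HOXC genes at chr12:54329112-54449814 on the plus strand and the HOXD genes at chr2:176957532-177055635 on the plus strand. The HOXB, HOXC and HOXD stretches span 97.0, 121 and 98.1 kb.

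The values are FPKM (fragment numbers corrected for transcript length and for the size of the library), so levels can be compared between genes; between samples they depend on the scaling. FPKM holds no counts, and the number of reads behind a value is unknown. Relative depth was read from the commonest ratio, gene by gene, of low values between DMSO replicate 1, set to 1, and each sample. It was 0.877 to 1 in the DMSO samples and 1.06 to 1.13 in the BCT samples. This reading assumes that such low values most often rest on the same number of fragments in both samples. The values of a sample summed to 1169649 to 1572321 with DMSO and 757534 to 799838 with BCT, and MIR6087, which is no HOX gene, held 43.5% to 55.3% and 31.7% to 32.5% of those sums. All 8 prostate and epithelial markers were present, from 0.863 to 1147.6 FPKM. Of 9 markers of leukocytes, endothelium, fibroblasts and smooth muscle, 8 stayed at or below 0.177 FPKM, and only COL1A1 was higher, so that the sum of the 9 was 1.70 to 1.78 FPKM with DMSO and 5.42 to 6.72 FPKM with BCT. The other 2 fibroblast markers, COL1A2 and DCN, were among the 8. Any part of COL1A1-expressing cells in the HOX results was not tested, and in bulk RNA fewer cells that express a gene and less of its RNA per cell cannot be told apart.

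HOXA, HOXB and HOXC were expressed and HOXD was near zero. In DMSO-treated cells the HOXA genes summed to 37.3 ± 1.47 FPKM (SD, n = 3), the HOXB genes to 44.6 ± 1.97 FPKM and the HOXC genes to 44.2 ± 0.886 FPKM, whereas the 9 HOXD genes summed to only 0.382 ± 0.045 FPKM. Of the 38 genes used, those with the highest DMSO levels were HOXC10 at 14.3 ± 1.07 FPKM and HOXB7 at 13.9 ± 0.548 FPKM. Their samples overlapped, so their order is not set. HOXB8 (10.8 ± 0.690 FPKM), HOXA5 (9.59 ± 0.411 FPKM) and HOXC6 (9.20 ± 0.110 FPKM), a gene often studied in prostate cancer, came next. Relative to the whole transcriptome these were moderate levels, as HOXC10 lay above 78.5% of all listed genes and HOXB7 above 78.0%. The levels by sample in the plot of the 4 clusters show that HOXA2, HOXB1 and HOXB2 were low. Among the genes used here, the highest values fell at paralogs 5 to 8 in HOXA and HOXB and at paralog 10 in HOXC.

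**Figure D1:**
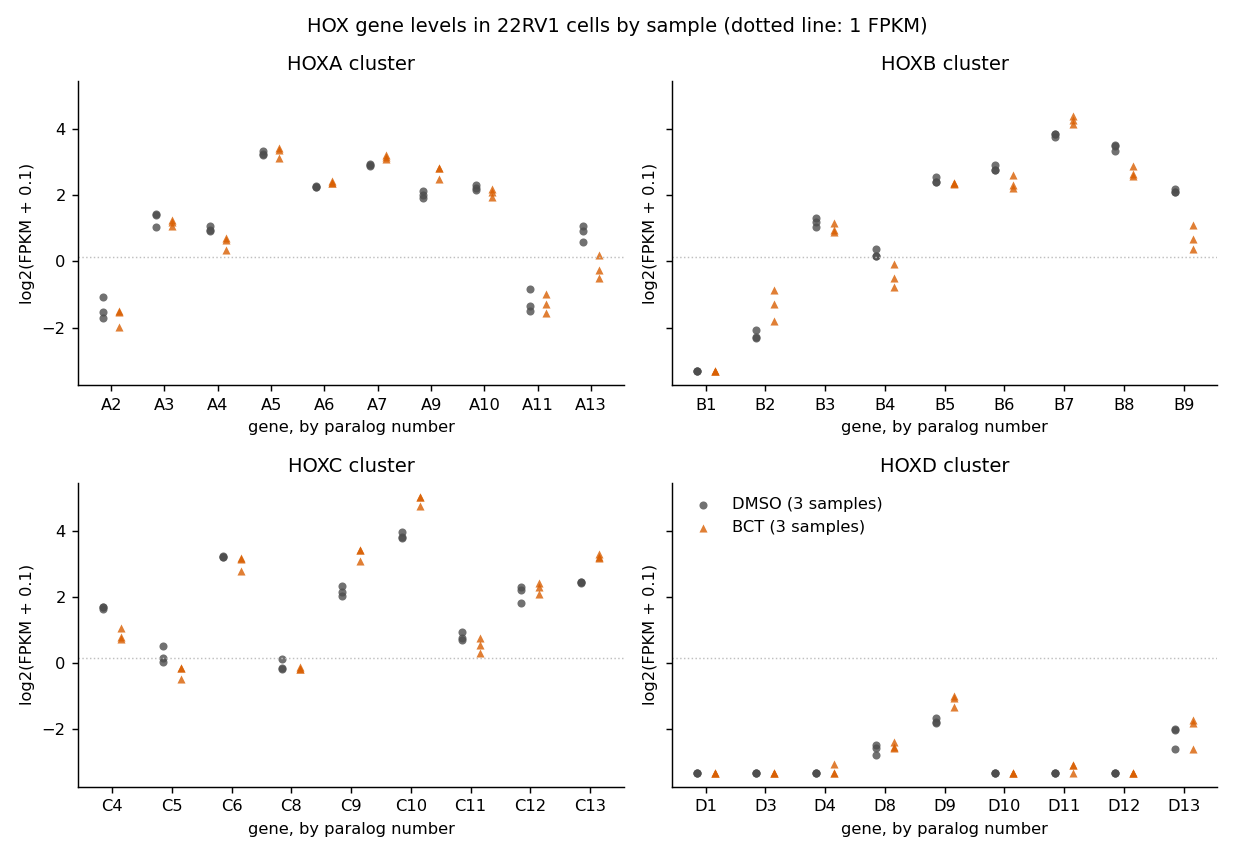
Levels of the HOX genes (all but 1 of the 38) in each sample as log2(FPKM + 0.1), with genes ordered by paralog number within each cluster, DMSO samples as grey circles, BCT samples as orange triangles and 1 FPKM as a dotted line. All HOXD genes sit below the line, and HOXC9, HOXC10 and HOXC13 have all BCT samples above all DMSO samples.

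Of the 38 genes, 21 averaged 1 FPKM or more across all samples and were tested (8 HOXA, 6 HOXB, 7 HOXC and no HOXD gene). The other 17 were not tested. HOXB1, HOXD1, HOXD3, HOXD10 and HOXD12 were listed at 0 in every sample. HOXD4 was above 0 only in BCT replicate 2 (0.020 FPKM), HOXD11 only in BCT replicates 1 and 3 (0.018 and 0.017 FPKM), and HOXD8 lay between 0.047 and 0.093 FPKM, so that 8 of the 38 genes were below 0.1 FPKM in every sample. HOXD13, a regulator of digit and genital development, ranged from 0.066 to 0.205 FPKM with overlapping groups.

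Some genes under the filter were nonetheless apart between groups. HOXD9 was at 0.190, 0.182 and 0.217 FPKM with DMSO and 0.402, 0.378 and 0.297 FPKM with BCT. In HOXB2, a gene of hindbrain patterning, the DMSO samples were at 0.105, 0.139 and 0.10 FPKM and the BCT samples at 0.449, 0.187 and 0.310 FPKM. All BCT samples of these 2 genes were above all DMSO samples, at levels where few fragments decide a value; with no filter on low values HOXB2 would be called higher (0.91, adjusted p = 0.045). HOXB4 (0.642 ± 0.184 FPKM with BCT against 1.07 ± 0.0924 with DMSO) and HOXC5 (0.741 ± 0.114 against 1.08 ± 0.212) had all BCT samples below all DMSO samples and missed the filter by little. HOXA2, HOXA11 and HOXC8 overlapped between groups, with ranges of 0.153 to 0.374, 0.242 to 0.456 and 0.773 to 0.984 FPKM.

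Fold changes were computed on log2(FPKM + 0.1), a scale that understates the change of low genes, and tested with limma over all 12729 genes that passed the filter, with Benjamini-Hochberg adjustment. A gene was called if its log2 fold change exceeded 0.85 in size and its adjusted p was below 0.05. By this rule 4 of the 21 HOX genes tested (19%) were called, against 31.6% of all genes tested. HOXC9 and HOXC10 rose (9.52% of the HOX genes, against 13.9% of all genes called higher), and HOXB9 and HOXA13 fell (9.52%, against 17.8% called lower). All 4 are posterior genes. The adjusted p alone was passed by 12 HOX genes (57.1%, against 82.1% of all genes), and the BCT samples lay wholly above or wholly below the DMSO samples in 15 of 21 (71.4%, against 85.3%), of which 7 were above (33.3%, against 41.0%) and 8 below (38.1%, against 44.3%). The median log2 fold change was -0.13 over the 21 genes and -0.038 over all genes tested, with 9 HOX genes above 0 and 12 below (57.1%), against 6134 and 6595 of all genes. The shares called, past the adjusted p and without overlap were all below those of all genes tested.

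The direction of the smaller changes depends on the scaling. Where every sample was set to the same FPKM sum, 8 HOX genes were called higher and none lower, and with MIR6087 left out of that sum 4 were called higher and 1 lower (HOXB9). Of all 12729 genes tested, 5614 were called higher and 668 lower with equal sums, and 3370 higher and 1208 lower without MIR6087. The HOX genes that gained a call with equal sums were HOXA6 (0.88), HOXA7 (0.99), HOXA9 (1.45), HOXB7 (1.23), HOXC12 (0.91) and HOXC13 (1.53). HOXA9 (1.08) and HOXC13 (1.15) also gained one without MIR6087. Under these scalings the median over all genes was 0.72 and 0.34, against -0.038. Relative to that median, HOXC9 was at 1.18 as deposited, 1.18 with equal sums and 1.18 without MIR6087, HOXC10 at 1.11, 1.12 and 1.12, HOXB9 at -1.36, -1.38 and -1.37, and HOXA13 at -1.01, -1.07 and -1.04 on the log2 scale. Both scalings multiply a whole sample by a common factor and so move all genes nearly alike. These relative values could therefore hardly differ, and their agreement is no test of the calls. All 4 called genes kept their sign under each scaling run. HOXA3, HOXA4, HOXA10, HOXB3, HOXB5, HOXB6, HOXB8, HOXC6 and HOXC11, none of them called, changed sign with equal sums, and directions below are those of the values as deposited.

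**Figure D2:**
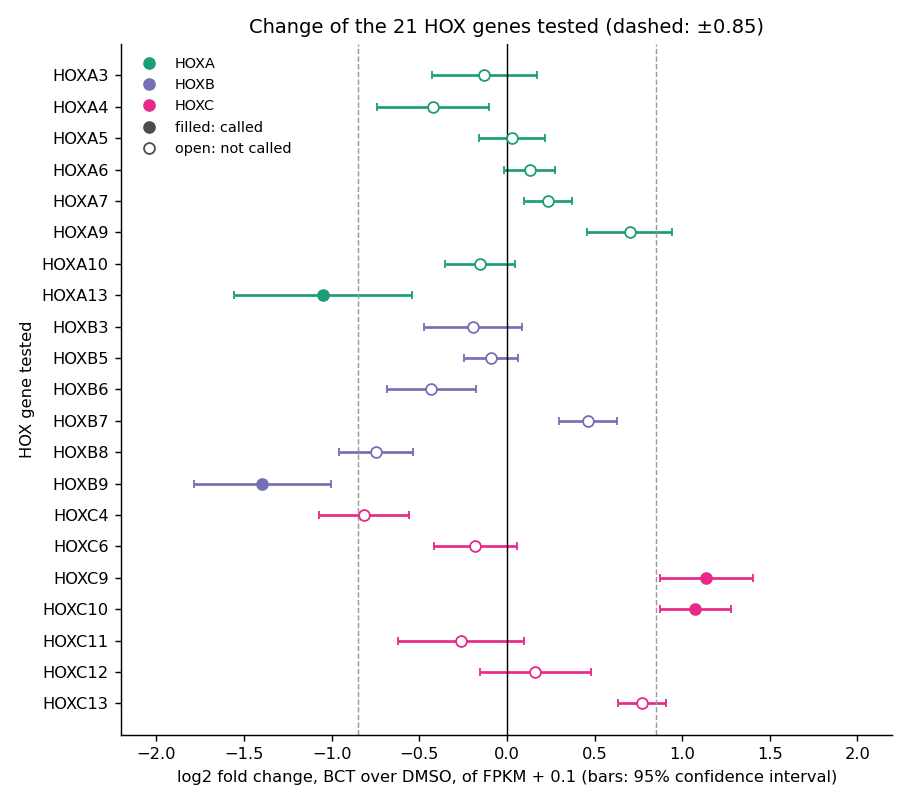
Log2 fold change (BCT over DMSO, of FPKM + 0.1) of the 21 HOX genes tested, with 95% confidence intervals as bars, filled circles for called genes and dashed lines at ±0.85. HOXC9 and HOXC10 lie to the right of the lines and HOXA13 and HOXB9 to the left, and the intervals of HOXC4, HOXB8, HOXC13 and HOXA9 cross the lines without a call.

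The HOXC cluster held the 2 genes that rose. HOXC10 (chr12:54377735-54384062), a posterior gene of hindlimb and lumbar patterning, was at 13.6, 13.9 and 15.6 FPKM in the DMSO samples and 26.7, 31.9 and 32.5 FPKM in the BCT samples. The lowest BCT sample was well above the highest DMSO sample. The means were 14.3 ± 1.07 and 30.4 ± 3.19 FPKM, and the log2 fold change was 1.07 (SE 0.088, 95% confidence interval 0.87 to 1.28, adjusted p = 8.1e-06). HOXC9 (chr12:54393877-54397120), its neighbor, was at 4.36, 3.96 and 4.87 FPKM with DMSO and 8.28, 10.7 and 10.5 FPKM with BCT. Again the groups were apart, with BCT replicate 1 the closest to the DMSO samples. Its log2 fold change was 1.14 (SE 0.12, interval 0.87 to 1.40, adjusted p = 2.6e-05). In both genes the lower bound of the interval is just above 0.85, and in a test against that fold change neither passed, with an adjusted p of 0.089 for HOXC9 and 0.085 for HOXC10 (limma). HOXC13, which lies at the far end of the cluster and drives hair keratin genes, was at 5.29, 5.38 and 5.40 FPKM with DMSO and 8.96, 9.03 and 9.70 FPKM with BCT. It passed the adjusted p (5.6e-06) but not the fold, at 0.77 on the log2 scale (SE 0.059). HOXC13 was called higher with equal FPKM sums (1.53) and with MIR6087 left out of that sum (1.15).

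The rest of the HOXC cluster did not share this pattern. Between HOXC10 and HOXC13 lie HOXC11 (chr12:54356092-54370203) and HOXC12 (chr12:54348714-54350350), whose groups overlapped. HOXC11 ranged from 1.5 to 1.83 FPKM with DMSO and from 1.13 to 1.58 with BCT (log2 fold change -0.26, interval -0.62 to 0.096), and HOXC12 from 3.45 to 4.78 and from 4.14 to 5.29 FPKM (0.16, interval -0.15 to 0.48). On the other side of HOXC9, HOXC6 was at 9.15, 9.13 and 9.33 FPKM with DMSO and 6.77, 8.79 and 8.93 FPKM with BCT. All 3 BCT samples were below the DMSO samples, although BCT replicate 1 was far lower than the others, and the change of -0.18 did not pass (adjusted p = 0.13). HOXC4 was at 3.02, 3.10 and 3.14 FPKM with DMSO and 1.97, 1.56 and 1.62 FPKM with BCT, and its change of -0.82 (SE 0.11, adjusted p = 1.6e-04) came close to the fold threshold. HOXC4 was called lower when BCT replicate 1 was left out (-0.91). The sum of the 5 posterior HOXC genes was 30.0 ± 0.810 FPKM with DMSO and 55.5 ± 5.06 FPKM with BCT, a ratio of 1.85, while that of the 4 central genes (HOXC4, HOXC5, HOXC6 and HOXC8) was 14.2 ± 0.219 and 11.4 ± 1.12 FPKM, a ratio of 0.802.

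In the HOXB cluster the values went both ways. HOXB9 (chr17:46698519-46703835) was at 4.45, 4.13 and 4.13 FPKM with DMSO and 2.04, 1.51 and 1.2 FPKM with BCT. The highest BCT sample was less than every DMSO sample by a wide margin. It fell by 1.39 on the log2 scale (SE 0.17, interval -1.79 to -1.0, adjusted p = 8.1e-05), and was the only HOX gene to pass the test against the fold threshold. HOXB8 (chr17:46689708-46692301), next to it, was at 11.1, 10.0 and 11.3 FPKM with DMSO and 7.30, 6.07 and 5.92 FPKM with BCT, a change of -0.75 that passed the adjusted p (8.4e-05) but not the fold. HOXB7 (chr17:46684595-46688383), the next gene, was at 14.2, 13.3 and 14.2 FPKM with DMSO and 17.6, 19.3 and 20.9 FPKM with BCT. Its change was of the opposite sign, 0.46 on the log2 scale (SE 0.071, adjusted p = 3.4e-04), and did not pass the fold threshold either. HOXB6, a gene that shares its file interval with HOXB5, was at 6.70, 6.64 and 7.49 FPKM with DMSO and 6.05, 4.53 and 4.89 FPKM with BCT (-0.43, adjusted p = 0.0060). HOXB5 was at 5.21, 5.17 and 5.68 FPKM and 4.92, 5.06 and 5.07 FPKM, apart by little and with an adjusted p of 0.23. HOXB3, an anterior gene of the hindbrain, overlapped between groups, at 2.18 ± 0.209 and 1.90 ± 0.197 FPKM.

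In the HOXA cluster the only gene called was HOXA13, the most posterior. HOXA13 (chr7:27236499-27239725), which is required for limb and genitourinary development, was at 1.41, 1.78 and 1.97 FPKM with DMSO and 1.04, 0.599 and 0.727 FPKM with BCT. The groups did not overlap, with BCT replicate 1 and DMSO replicate 1 the nearest samples. It fell by 1.05 on the log2 scale (SE 0.22, interval -1.56 to -0.54, adjusted p = 0.0021), and lost its call with a pseudocount of 1 FPKM, where the change was -0.61. HOXA13 passed the filter only through its DMSO samples, as its BCT mean was 0.790 FPKM, so its selection favored a fall. Its mean over all samples, 1.25 FPKM, was the lowest of the HOX genes tested. HOXA9 (within chr7:27202057-27219880, shared with HOXA10), best known for its role in leukemia, was at 3.91, 3.70 and 4.24 FPKM with DMSO and 5.54, 7.03 and 6.95 FPKM with BCT, 0.70 on the log2 scale (SE 0.11, adjusted p = 2.9e-04). HOXA10, a regulator of uterine and vas deferens development, overlapped between groups at 4.59 ± 0.245 and 4.13 ± 0.364 FPKM. The most posterior HOXA gene and HOXA9 thus had changes of opposite sign with both groups apart in each.

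**Figure D3:**
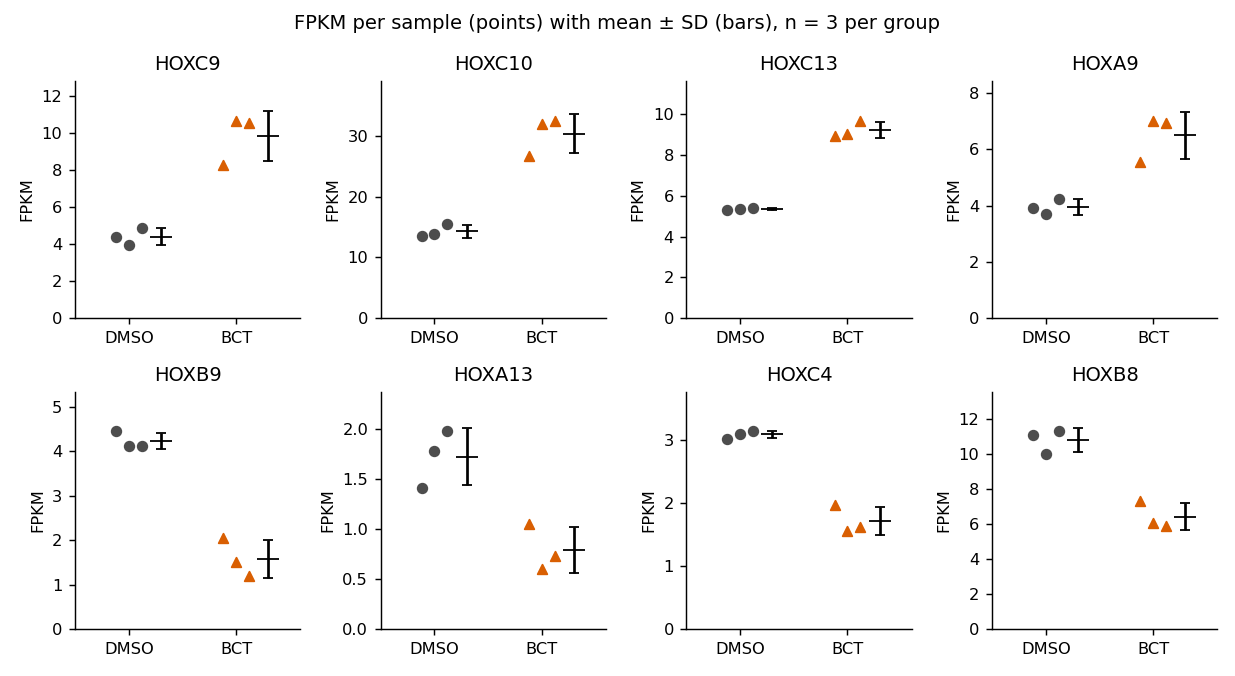
FPKM per sample in the 3 DMSO (grey circles) and 3 BCT samples (orange triangles) of the 4 called HOX genes and the 4 with the next largest changes, with the mean ± SD as bars on axes that start at 0. HOXC9, HOXC10, HOXC13 and HOXA9 are higher in all BCT samples, HOXB9, HOXA13, HOXC4 and HOXB8 lower in all BCT samples as deposited (with equal FPKM sums the groups overlap in the last 3), and BCT replicate 1 is the BCT sample nearest to DMSO in all 8 panels.

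The central and anterior HOXA genes differed little. HOXA7 was at 7.48, 7.28 and 7.56 FPKM with DMSO and 8.78, 8.36 and 9.17 FPKM with BCT (0.23, adjusted p = 0.0057). HOXA6 was at 4.70 ± 0.0768 and 5.15 ± 0.159 FPKM with the groups apart (0.13, adjusted p = 0.088). HOXA5, a gene of lung and mammary development with the highest level in its cluster, was at 9.59 ± 0.411 and 9.82 ± 0.997 FPKM, and the interval of its log2 fold change, -0.16 to 0.22, includes no change of 0.85. HOXA4 was at 2.01, 1.84 and 1.80 FPKM with DMSO and 1.16, 1.48 and 1.52 FPKM with BCT (-0.42, adjusted p = 0.020), and HOXA3, required for the thymus and parathyroid, overlapped at 2.37 ± 0.360 and 2.15 ± 0.142 FPKM. As deposited, no gene of paralog groups 1 to 8 was called, among 12 tested, and 4 of the 9 posterior genes tested were, against 31.6% of all genes tested. The difference between these shares was not tested, and the genes are few. Of the posterior genes called, HOXA13 passed the filter only through its DMSO samples. With equal FPKM sums the central genes HOXA6, HOXA7 and HOXB7 and the posterior genes HOXA9, HOXC12 and HOXC13 gained calls. HOXB9 and HOXA13 then lost theirs. HOXC4, a central gene, was called lower without BCT replicate 1.

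BCT replicate 1 was the BCT sample nearest to DMSO in all 4 called genes, and also on the first principal component of all genes (72.0% of the variance), where it stood at 40.2 and the other 2 BCT samples at 65.0 and 63.8. Without it the changes were 1.26 for HOXC9, 1.16 for HOXC10, -1.58 for HOXB9 and -1.25 for HOXA13. Each of the 4 genes kept its call with any 1 sample left out, over ranges of 1.07 to 1.26, 1.02 to 1.16, -1.58 to -1.22 and -1.25 to -0.89.

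Summed over the clusters as used here, without 1 HOXB gene, HOXC gained in share. The HOXC genes summed to 43.8, 43.6 and 45.2 FPKM in the DMSO samples and 60.0, 69.0 and 71.8 FPKM in the BCT samples, a ratio of 1.51. HOXA sums were 37.3 ± 1.47 and 39.9 ± 2.26 FPKM, a ratio of 1.07. HOXB sums were 44.6 ± 1.97 and 40.3 ± 1.3 FPKM, a ratio of 0.902 and a log2 change of -0.15 that turned to 0.61 with equal FPKM sums. HOXD sums of 0.382 ± 0.045 and 0.608 ± 0.052 FPKM (ratio 1.59) remained far under 1 FPKM. HOXC thereby made up 34.6% to 35.6% of the HOX sum in the DMSO samples and 43.0% to 46.6% in the BCT samples, and HOXB 34.8% to 35.5% and 26.2% to 29.6%. These shares are taken within a sample, so no scaling of whole samples can alter them. They do depend on the genes summed, and hold for the 38 genes used here only. HOXC10 was the largest term of the HOXC sum in every sample.

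Ratios between paralogs of 1 sample are likewise free of the scaling. In 8 of the 12 pairs of tested paralogs the BCT ratios lay apart from the DMSO ratios, and in 4 of them by more than 1 on the log2 scale. No such share was computed for pairs of other genes, and 85.3% of all single genes tested had groups apart. It is therefore not known whether the count of pairs is unusual. Some genes, such as HOXB9, enter several pairs, so the pairs are not independent. An exact permutation test of 3 against 3 samples cannot go below p = 0.1, which each of these 8 pairs reached. HOXB9 and HOXC9 stood at nearly equal levels with DMSO, with HOXB9/HOXC9 ratios of 1.02, 1.04 and 0.848, and at 0.247, 0.141 and 0.114 with BCT, a log2 change of -2.61 (SE 0.35). HOXA9/HOXB9 ratios went from 0.934 ± 0.082 to 4.39 ± 1.56 (2.17, SE 0.33). The 3 tested paralogs of group 9, HOXA9, HOXB9 and HOXC9, thus had DMSO means of 3.95, 4.24 and 4.40 FPKM and BCT means of 6.50, 1.58 and 9.83 FPKM, while HOXD9 was under 1 FPKM in both. HOXA10/HOXC10 ratios were 0.321 ± 0.012 and 0.137 ± 0.019 (-1.24, SE 0.12), and HOXA13/HOXC13 ratios 0.321 ± 0.050 and 0.086 ± 0.027 (-1.93, SE 0.28). Since HOXA13 passed the filter only through its DMSO samples, its selection favored a fall of the HOXA13/HOXC13 ratio. The 4 pairs that overlapped were HOXA3/HOXB3, HOXA4/HOXC4, HOXA5/HOXB5 and HOXB6/HOXC6.

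**Figure D4:**
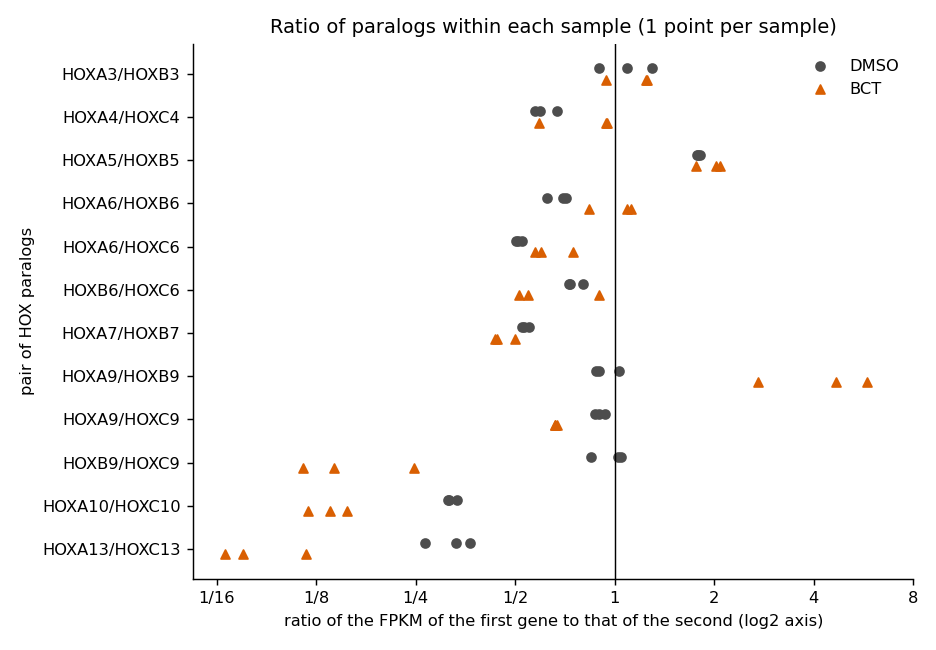
Ratio of the FPKM of paralogs in each sample, on a log2 axis, for the 12 pairs of tested genes that share a paralog number (DMSO grey circles, BCT orange triangles). The DMSO ratios of HOXA9/HOXB9 and HOXB9/HOXC9 lie near 1, and those with BCT lie at 2.71 to 5.80 and at 0.114 to 0.247.

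The clusters also hold microRNAs, short RNAs that pair with messenger RNAs through their seed, bases 2 to 8. The members of the miR-196 family lie between posterior HOX genes and are known to act on HOX messages, and miR-10a lies in HOXB. They are shown because their seed can be looked for in the HOX transcripts measured here. The mature sequences are from RefSeq (GRCh38.p14), with the seed in capitals. The locus of miR-196b is at chr7:27169528-27169549 (minus strand), and those of miR-196a are at chr12:53991762-53991783 (plus strand) and chr17:48632532-48632553 (minus strand).
hsa-miR-196a-5p: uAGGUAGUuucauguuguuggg
hsa-miR-196b-5p: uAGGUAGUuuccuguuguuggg
hsa-miR-10a-5p: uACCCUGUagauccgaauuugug
The 2 miR-196 sequences share the seed and miR-10a has another. The microRNA genes MIR196A1, MIR196A2, MIR196B and MIR10A were listed at 0 in all samples. The libraries were made from messenger RNA, however, so the mature microRNAs were not measured.

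The complement of the miR-196 seed, ACTACCT, was found in the 3′ UTR of 5 of the 21 HOX genes tested (23.8%, median UTR length 905 bases) and of 869 of 10996 genes tested with a UTR (7.90%, median 1322 bases). UTRs are those of GENCODE release 44 lifted to GRCh37, read on the strand of the gene. The 5 genes are HOXA5, HOXA7, HOXA9, HOXB6 and HOXB7, with 4 matches in HOXA7 and 2 in HOXA9. The matches are printed with flanking bases and the match in capitals, since these 5 genes lie side by side with genes that lack it.
HOXA5: gatatttttattcaaACTACCTatatt
HOXA7 match 1: tggcgcgtccaaaatACTACCTagcac
HOXA7 match 2: tcgaggcacccccaaACTACCTatgta
HOXA7 match 3: aaagtgaatctcactACTACCTactcc
HOXA7 match 4: acctactcccctaaaACTACCTatttt
HOXA9 match 1: aacaaaaggaaagaaACTACCTtttta
HOXA9 match 2: tatgtgcagaaggttACTACCTagggt
HOXB6: ctggaaggagcacatACTACCTagaag
HOXB7: caacactgaaaaaatACTACCTatagg
None of the 4 called genes holds these letters in its UTR. The log2 fold changes of the 5 genes were 0.030 for HOXA5, 0.23 for HOXA7, 0.70 for HOXA9, -0.43 for HOXB6 and 0.46 for HOXB7. A match is only a run of letters, and no microRNA level was measured to set beside it.

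Promoter sequences of RefSeq (GRCh38.p14; 250 bases before and 50 after a start) were at hand for 20 of the 38 HOX genes, 8 of them tested, with 26 distinct starts of which 7 belong to HOXA3. The letters CCAAT, searched on both strands, were in 17 of the 26 (65.4%) and in 34.6% of all 34943 distinct promoters, TATAAA in 19.2% and 11.6%, and GGGCGG in 13 of the 26 and 44.9%. TGATNNAT, a form of the joint site of PBX and HOX proteins, was in 11.5% and 7.42%. A promoter of these HOX genes held a median of 22.5 CpG dinucleotides, against 14 over all promoters. HOXA9 and HOXA13 are printed as 2 posterior HOXA genes with groups apart as deposited and changes of opposite sign, at chr7:27165488-27165787 and chr7:27200042-27200341 (minus strand), with CCAAT and TATAAA in capitals.
HOXA9: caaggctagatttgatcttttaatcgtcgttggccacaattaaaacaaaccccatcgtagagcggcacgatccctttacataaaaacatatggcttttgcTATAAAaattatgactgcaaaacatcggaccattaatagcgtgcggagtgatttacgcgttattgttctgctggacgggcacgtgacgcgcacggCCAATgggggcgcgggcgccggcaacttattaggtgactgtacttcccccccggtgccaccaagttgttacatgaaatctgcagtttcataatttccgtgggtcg
HOXA13: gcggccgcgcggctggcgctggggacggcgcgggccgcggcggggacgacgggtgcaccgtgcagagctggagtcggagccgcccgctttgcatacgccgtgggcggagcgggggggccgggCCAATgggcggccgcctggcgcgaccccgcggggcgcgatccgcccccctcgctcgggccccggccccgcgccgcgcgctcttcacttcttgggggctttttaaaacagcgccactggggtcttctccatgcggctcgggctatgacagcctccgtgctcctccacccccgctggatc
Both hold CCAAT and, of this pair, only the HOXA9 promoter holds TATAAA, while the HOXA13 promoter has 44 CpG dinucleotides against 22 in HOXA9. The promoters of HOXA10, whose change was -0.15 with overlapping groups, also hold TATAAA. A link between these letters and the changes was not tested.

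Genes of the HOX clusters overlap each other and their antisense RNAs, and the library kit does not mark strand, so reads from overlapping exons cannot be told apart. By GENCODE, 6 of the 21 HOX genes tested share no exonic base with another gene, among them HOXB7, HOXB8 and HOXB9, and 10 share more than 10%, up to 62.5% in HOXA7. Among the called genes the share was 9.78% in HOXC9, 9.66% in HOXC10 and 1.70% in HOXA13. HOXA4 (47.8%), HOXA6 (40.1%), HOXB6 (32.9%), HOXA9 (27.0%), HOXA10 (26.3%), HOXA3 (19.8%), HOXC4 (17.5%), HOXC6 (16.1%) and HOXB3 (11.7%) are, with HOXA7, the less certain values. In the files themselves, 12 of the tested HOX genes carry an interval that another HOX gene also carries, such as HOXA5, HOXA6 and HOXA7.

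The noncoding RNAs of the clusters were followed by symbol. Of 23 in the files, 4 were tested; 2 were called higher (50%, against 13.9% of all genes) and none lower (17.8% of all genes), with a median log2 fold change of 0.73 against -0.038. HOTAIRM1, an RNA transcribed from the anterior end of the HOXA cluster, was at 1.90, 1.83 and 2.16 FPKM with DMSO and 3.91, 5.48 and 5.17 FPKM with BCT, and rose by 1.25 on the log2 scale (SE 0.14, adjusted p = 4.0e-05). HOXC-AS3, antisense to HOXC10, was at 3.46, 4.52 and 4.70 FPKM with DMSO and 9.85, 9.86 and 7.53 FPKM with BCT and rose by 1.09 (SE 0.14, adjusted p = 1.2e-04). It shares its file interval with HOXC10, which rose by 1.07, and without strand the reads of their shared exons could belong to either. HOXC-AS1 (0.37, adjusted p = 0.068) and HOXB-AS3 (0.35, adjusted p = 0.0077) were not called. HOTAIR, a well-studied RNA of the HOXC cluster, was below the filter, at 0.742 ± 0.20 FPKM with DMSO and 0.947 ± 0.0257 FPKM with BCT, and its groups overlapped. HOTTIP, next to HOXA13, was at 0.105 ± 0.0289 and 0.047 ± 0.0020 FPKM, with all BCT samples below all DMSO samples.

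Of 22 other genes within 200 kb of a cluster 8 were tested, of which 2 rose and 2 fell (25% each, against 13.9% and 17.8% of all genes), and the median log2 fold change was -0.42 against -0.038. EVX1, a homeobox gene beside HOXA13, was at 1.40, 2.19 and 2.08 FPKM with DMSO and 3.50, 3.97 and 4.17 FPKM with BCT. It rose by 1.02 (SE 0.17, adjusted p = 4.7e-04), against the fall of HOXA13, but was not called without DMSO replicate 1 (0.83), with a pseudocount of 1 FPKM (0.76) or in the test against the fold threshold. LOC400043, beside the HOXC cluster, rose by 1.34, while CBX5, which encodes the heterochromatin protein HP1 alpha and lies on the same side of HOXC, fell by 1.22, and PRAC2, a gene beside HOXB that is expressed in prostate and colon, fell by 0.86. PRAC2 lay at the fold threshold and lost its call under 10 alternatives, among them all 5 other scalings and the samples without DMSO replicate 1, DMSO replicate 3 or BCT replicate 2 (-0.83, -0.81 and -0.83). CBX5 lost its call with equal FPKM sums (-0.46) and with MIR6087 left out of that sum (-0.84). LOC400043 lost its call with a pseudocount of 1 FPKM (0.83). It passed the filter only through its BCT samples, so its selection favored a rise.

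TALE proteins help determine where HOX proteins bind, and 6 of the 9 TALE genes were tested. MEIS1 was at 1.73, 1.97 and 1.72 FPKM with DMSO and 3.78, 4.73 and 4.18 FPKM with BCT, and rose by 1.18 (SE 0.11, adjusted p = 1.6e-05). MEIS3 was at 2.18, 2.01 and 1.95 FPKM with DMSO and 0.591, 0.813 and 0.874 FPKM with BCT, and fell by 1.33 (SE 0.17, adjusted p = 1.0e-04). In both genes the groups were well apart, and MEIS3 lost its call with equal FPKM sums (-0.63), with a pseudocount of 1 FPKM (-0.79) and in the test against the fold threshold (adjusted p = 0.055). MEIS3 passed the filter only through its DMSO samples, so its selection favored a fall. PBX2, the most abundant TALE gene, was at 22.7 ± 0.211 and 34.3 ± 1.5 FPKM (0.59), PBX3 at 6.37 ± 0.279 and 4.72 ± 0.560 FPKM (-0.43) and PKNOX1 at 6.64 ± 0.400 and 5.28 ± 0.518 FPKM (-0.33), all with an adjusted p below 0.05 and none past the fold, and PBX3 and PKNOX1 changed sign with equal FPKM sums. The median over the 6 was -0.38. Below the filter, MEIS2 (0.128 ± 0.0127 and 0.405 ± 0.112 FPKM) and PKNOX2 (at most 0.008 FPKM with DMSO and 0.166 to 0.20 FPKM with BCT) had all BCT samples above all DMSO samples, and PBX4 overlapped.

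**Figure D5:**
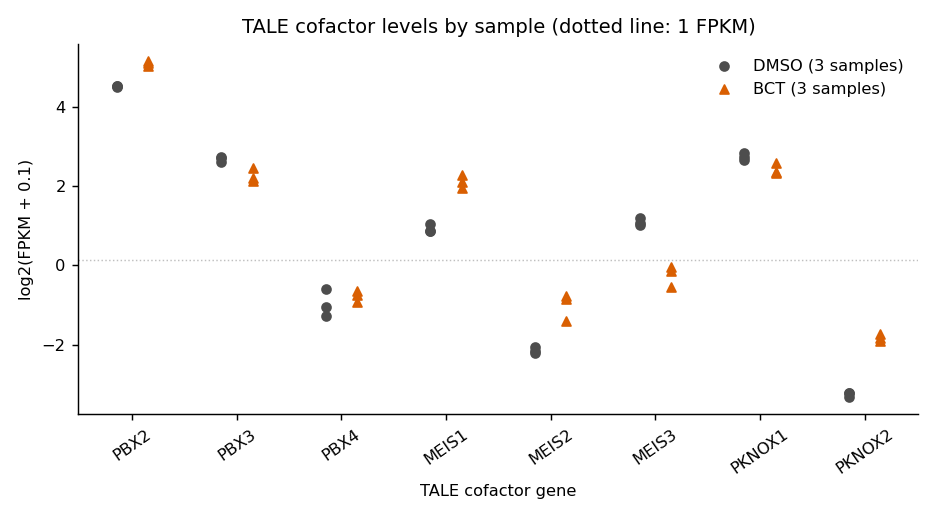
Levels of TALE cofactor genes (all but 1 of the 9) in each sample as log2(FPKM + 0.1), with DMSO samples as grey circles, BCT samples as orange triangles and 1 FPKM as a dotted line. MEIS1 and PBX2 are higher and PBX3, MEIS3 and PKNOX1 lower in all BCT samples as deposited (PBX3 and PKNOX1 turn to higher means with equal FPKM sums), among which MEIS1 and MEIS3 were called.

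Polycomb complexes silence HOX clusters, and all 31 Polycomb genes listed were tested, of which 5 fell (16.1%, against 17.8% of all genes) and 4 rose (12.9%, against 13.9%), with a median log2 fold change of 0.093 against -0.038. The largest falls were in 2 chromobox readers of the Polycomb mark, CBX2, from 4.53 to 0.958 FPKM (-2.15), and CBX7, from 21.8 to 5.45 FPKM (-1.99). Of these, CBX2 passed the filter only through its DMSO samples, so its selection favored a fall. The largest rises were in PCGF1, a ring-finger subunit, from 22.3 to 90.9 FPKM (2.01), and PHC3, a polyhomeotic subunit, from 4.35 to 14.3 FPKM (1.70). Of 13 Trithorax and demethylase genes, which counter Polycomb, 3 rose (23.1%, against 13.9%) and 2 fell (15.4%, against 17.8%), with a median of 0.25. KMT2A, the MLL methyltransferase that keeps HOX genes active, rose by 1.37, and ASH1L, another methyltransferase of this group, by 1.06. PSIP1 and MEN1, which tether KMT2A to chromatin, fell by 1.42 and 1.09. Both lost their calls with equal FPKM sums (-0.66 and -0.33), and MEN1 also with MIR6087 left out of that sum (-0.71).

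Among 16 upstream regulators 9 were tested, with 1 called in each direction (11.1%, against 13.9% higher and 17.8% lower of all genes) and a median of 0.24. RARB, a retinoic acid receptor, was at 3.33, 2.86 and 2.94 FPKM with DMSO and 0.791, 0.429 and 0.583 FPKM with BCT, and fell by 2.19 (SE 0.20). RARB passed the filter only through its DMSO samples, so its selection favored a fall. CRABP2, which carries retinoic acid to its receptors, was at 7.50, 7.75 and 9.40 FPKM with DMSO and 15.3, 21.1 and 18.9 FPKM with BCT, and rose by 1.15 (SE 0.13). CDX1, CDX2 and CDX4, homeobox genes that turn on posterior HOX genes in the embryo, were listed at 0 in all samples. Over these lists without the genes that flank the clusters, 63 genes were tested, of which 10 fell and 11 rose. Of all 12729 genes tested, 17.8% were called lower and 13.9% higher. With equal FPKM sums 3 of the 63 were called lower and 35 higher, and of all 12729 genes 668 were called lower and 5614 higher.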

How the data were processed

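RNA-seq of 22RV1 cells gave 6 libraries, 3 with DMSO and 3 with 10 nM BCT for 24 h, grouped by the sample labels. The authors prepared unstranded messenger RNA libraries, trimmed reads with Trimmomatic 0.38, aligned them to hg19 with HISAT2, assembled transcripts with StringTie and deposited 1 FPKM value per gene and sample; HTSeq is also named in the submitters' processing notes. The gene annotation is not given in the sources used here.

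From the FPKM values, log2(FPKM + 0.1) was tested in R 4.3.3 with limma 3.58.1 and its eBayes step, trended on the mean, for genes averaging 1 FPKM or more, with Benjamini-Hochberg adjustment over all 12729 genes. The filter uses the mean of all samples, so HOXA13, MEIS3, RARB and CBX2 passed it only through DMSO and LOC400043 only through BCT. The fit was tested on simulated data. The members and lists were chosen with earlier results of these data known. Apart from the genes not reported, every HOX gene is named; from the other lists, the 2 genes called higher and the 2 called lower that changed most, all tested cluster noncoding RNAs and the TALE genes. HOTAIR, HOTTIP and the CDX genes fall outside this rule, as choices made once values were known. HOXB sums leave out 1 further HOXB gene, which is not reported here, nor are the values of 1 HOXA and 1 TALE gene, which stay in the counts, sums and medians. Positions are those of the files after adding 1 to each start, since start plus 1 was a GENCODE gene start for 5387 of 22422 matched symbols, and the start itself for 590. Alternatives covered the pseudocount, the filter, 5 other scalings, a stricter FDR, 2 variance models, testing against the fold threshold, a replicate block and leaving out each sample.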

Additional observations from a re-analysis of the deposited data

How the results depend on the processing

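With every sample set to the same FPKM sum, the HOX genes called were 8 higher and 0 lower and the other genes of the HOX system 35 higher and 3 lower, the median log2 fold change of the HOX genes tested was 0.61, and the log2 changes of the summed HOXA, HOXB, HOXC and HOXD levels were 0.86, 0.61, 1.36 and 1.44 (0.097, -0.15, 0.60 and 0.67 as deposited). That scaling reversed HOXA3 (0.61), HOXA4 (0.30), HOXA10 (0.60), HOXB3 (0.54), HOXB5 (0.66), HOXB6 (0.33), HOXB8 (0.012), HOXC6 (0.58), HOXC11 (0.46), PBX3 (0.33) and PKNOX1 (0.43), and HOXB9 (-0.66) and HOXA13 (-0.35) lost their calls. Among the HOX genes, HOXA6, HOXA7, HOXA9, HOXB7, HOXC12 and HOXC13 gained a call. With MIR6087 left out of the sum, the calls were 4 higher and 1 lower for the HOX genes and 18 higher for the others, the median was 0.24, the summed changes were 0.49, 0.24, 0.99 and 1.06, and HOXA3 (0.24), HOXA10 (0.23), HOXB3 (0.18), HOXB5 (0.29), HOXC6 (0.20), HOXC11 (0.10) and PKNOX1 (0.055) were reversed. Both move the median of all genes, to 0.72 and 0.34. Of all 12729 genes tested, 5614 were called higher and 668 lower with equal sums, and 3370 higher and 1208 lower without MIR6087.

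A pseudocount of 1 FPKM left 1 HOX gene called lower, as HOXA13 was at -0.61. A filter at 5 FPKM left 11 HOX genes, with 0 called lower, since HOXB9 and HOXA13 are below it; 6 of the other genes were then called lower, and the HOX median was 0.23. The HOX median was 0 with no filter and -0.075 with quantile normalization. The test against the fold threshold called 0 HOX genes higher, 1 lower and 6 of the other genes higher. HOXC-AS3, ASH1L, CRABP2 and MEN1 were among those that lost their calls in that limma test (adjusted p of 0.28, 0.25, 0.10 and 0.062).

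With 1 sample left out, the HOX calls were 2 higher and 2 to 3 lower, the calls among the other genes 10 to 12 higher and 10 lower, the HOX median -0.19 to -0.058 (-0.19 without DMSO replicate 2, -0.058 without DMSO replicate 3 and -0.078 without BCT replicate 1), and the summed changes 0.054 to 0.14, -0.18 to -0.12, 0.55 to 0.67 and 0.58 to 0.73. HOXA5 ranged from -0.024 to 0.11, at -0.0013 without BCT replicate 2 and -0.024 without BCT replicate 3.

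The labels give both groups replicate numbers 1 to 3, but same-numbered samples had deviations from their group means that correlated at 0.116, 0.033 and 0.034, and DMSO replicate 2 correlated best with BCT replicate 3, so the numbers were not taken to pair the samples. With the replicate number as a block, 2 HOX genes were called higher and 2 lower, and 11 and 10 of the other genes; gene by gene, 0 of the 21 HOX genes and 0 of the 71 listed genes tested changed call.

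Over the alternatives of the HOX genes and of the other genes named with a fold change, 795 values kept their direction and call, 13 gained a call, 33 lost one and 20 were reversed; where no cause is named above, it was not tested. The files hold no counts, so the precision of the low HOX genes is unknown, and 3 samples a group limit that of the rest.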
